A study of Mus musculus with 9 samples.

Results

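Inward rectifier potassium channels let potassium into a cell more easily than out and hold the resting potential near the potassium equilibrium. Each channel is a tetramer of subunits encoded by the Kcnj genes. Kir2 channels are open constitutively, Kir3 channels (GIRK) are opened by beta-gamma subunits of Gi/o proteins after receptors for GABA, adenosine or other transmitters are engaged, and Kir6 channels close when ATP is high. Kir4.1 and Kir5.1 carry potassium in astrocytes, where they help to clear the ion released by firing neurons. The 9 genes described are Kcnj2, Kcnj4 and Kcnj12 (Kir2.1, Kir2.3 and Kir2.2), Kcnj3, Kcnj6 and Kcnj9 (GIRK1, GIRK2 and GIRK3), Kcnj10 and Kcnj16 (Kir4.1 and Kir5.1), and Kcnj11 (Kir6.2). They were taken by symbol from a table of 40773 genes, 15183 of which had enough counts to be tested, and all 9 were among those tested.

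The study treated mouse embryonic cortical neurons in culture and read polyadenylated RNA by stranded sequencing 72 h later. K+ ICN cultures received a peptide nanostructure charged with potassium ions, Na+ ICN cultures one charged with sodium ions, and PA cultures a non-charged peptide amphiphile, with 3 libraries in each group. In all groups 80 µl of amphiphile was laid on cells that had settled overnight, with a treatment given as 200 µM from a 5 mM stock, and 50% of the culture medium was replaced 48 h later. The replicates are called biological, but the labels name no strain, age, animal, litter or dissection, so the p-values speak of the variation among these cultures alone, which may be technical. Cultures without any amphiphile were not analysed here.

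Library totals were 20573886 to 21914112 counts with K+ ICN, 17924988 to 20640622 with Na+ ICN and 18532789 to 22906950 with PA. Levels are given as CPM, counts relative to the library total after TMM scaling. The label of cortical neurons was met by 12 pan-neuronal markers, which summed to 8223 to 8333 CPM with K+ ICN, 9005 to 9241 with Na+ ICN and 9176 to 9319 with PA. The cultures also held glial RNA. The 13 astrocyte markers summed to 993 to 1012 CPM with K+ ICN, 1026 to 1084 with Na+ ICN and 856 to 891.3 with PA, and 11 microglial markers to 27.5 to 32.3, 25.6 to 32.6 and 24.9 to 29.9 CPM in the same groups. Progenitor markers summed to 1158 to 1196 CPM with K+ ICN, 1105 to 1173 with Na+ ICN and 979.8 to 1024 with PA, and endothelial and mural markers to 128 to 160.3, 116 to 126 and 67.7 to 82.1 CPM in the same groups. The largest parts of that last sum were Acta2 (means of 68.0, 54.4 and 32.8 CPM in the same order) and Tagln (38.4, 32.0 and 16.5). Kdr averaged 14.6, 10.6 and 9.77 CPM, while Pecam1, Cdh5, Cldn5, Tek, Flt1 and Des averaged at most 0.941 CPM in any group. Inhibitory neuron markers summed to 788 to 811 CPM with K+ ICN, 725 to 741 with Na+ ICN and 815 to 840.2 with PA. None of these markers was at 0 in all libraries. Mitochondrial transcripts took 4.93% to 5.18% of counts with K+ ICN, 5.24% to 5.44% with Na+ ICN and 4.15% to 4.33% with PA. The part of these shifts in the channel values was not tested. In such bulk samples, fewer cells of a type and less RNA per cell cannot be told apart.

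The 9 genes lie on 6 mouse chromosomes, and 4 of them form close pairs. Positions are from RefSeq on GRCm38. Kcnj9 (chr1:172320508-172329322, minus strand) and Kcnj10 (chr1:172341210-172374085, plus strand) are 11.9 kb apart, and Kcnj16 (chr11:110968033-111027968) and Kcnj2 (chr11:111066164-111076825), both on the plus strand, are 38.2 kb apart. No protein-coding gene is annotated between the members of either pair. Kcnj11 (chr7:46097123-46100952, minus strand) lies 3.6 kb from Abcc8, which encodes SUR1, its regulatory partner in the ATP-sensitive channel. Kcnj3 (chr2:55411798-55598145), Kcnj6 (chr16:94744980-94997696), Kcnj4 (chr15:79480226-79512511) and Kcnj12 (chr11:61022564-61073269) have no member nearby. In GENCODE M21, exons of Kcnj3, Kcnj6 and Kcnj9 overlap predicted genes on the opposite strand, by 3022, 380 and 344 bases. Whether counting used strand is not given in the sources used here, so counts of these 3 genes are uncertain to that extent.

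The promoter sequences of the 4 genes that passed a test are shown, since their libraries moved in different combinations with K+ and Na+ ICN. Each runs from 250 bases before to 50 bases after the start site, 5′ to 3′ on the gene's strand, from RefSeq on GRCm38.p6, and 8 of the 9 genes had an entry. Capitals mark TGACG, which is the core of the cAMP response element, searched on both strands. The Kcnj3 window is chr2:55435720-55436019 (plus), the Kcnj6 window chr16:94997647-94997946 (minus), the Kcnj4 window chr15:79505192-79505491 (minus) and the Kcnj2 window chr11:111065914-111066213 (plus). The Kcnj3 and Kcnj4 start sites lie inside the span of the gene given above. Kcnj6 has another annotated window, chr16:94856641-94856940 (minus), which is not shown and holds no TGACG.
Kcnj3: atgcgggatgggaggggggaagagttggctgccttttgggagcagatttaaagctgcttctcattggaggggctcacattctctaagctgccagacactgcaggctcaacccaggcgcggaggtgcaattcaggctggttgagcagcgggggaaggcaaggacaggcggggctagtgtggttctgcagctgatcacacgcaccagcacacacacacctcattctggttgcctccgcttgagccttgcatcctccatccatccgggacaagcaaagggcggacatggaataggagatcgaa
Kcnj6: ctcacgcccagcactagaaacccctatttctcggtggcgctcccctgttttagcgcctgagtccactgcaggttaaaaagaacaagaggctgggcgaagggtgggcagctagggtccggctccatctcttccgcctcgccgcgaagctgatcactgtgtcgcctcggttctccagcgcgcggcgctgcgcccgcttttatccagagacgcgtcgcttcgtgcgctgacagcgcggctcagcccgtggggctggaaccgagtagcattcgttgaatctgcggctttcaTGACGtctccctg
Kcnj4: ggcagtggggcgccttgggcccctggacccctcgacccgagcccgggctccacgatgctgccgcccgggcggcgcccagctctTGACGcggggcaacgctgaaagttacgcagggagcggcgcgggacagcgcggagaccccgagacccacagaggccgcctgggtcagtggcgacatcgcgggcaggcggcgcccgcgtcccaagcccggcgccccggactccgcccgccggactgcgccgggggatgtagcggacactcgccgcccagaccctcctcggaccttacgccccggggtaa
Kcnj2: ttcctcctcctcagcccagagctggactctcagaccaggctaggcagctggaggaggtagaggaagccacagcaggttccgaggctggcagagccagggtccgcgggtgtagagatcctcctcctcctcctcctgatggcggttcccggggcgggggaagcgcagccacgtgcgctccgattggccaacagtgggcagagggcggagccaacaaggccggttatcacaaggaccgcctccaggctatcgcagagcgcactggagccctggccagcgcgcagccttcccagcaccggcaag
TGACG was found in 2 of the 12 annotated windows of the members, at base -167 from the start site in Kcnj4 and at base 38 of the transcript in Kcnj6, and in 20.8% of 32851 promoter windows of the same length. The full palindrome TGACGTCA, present in 1.79% of all windows, and the AP-1 core TGANTCA, in 7.81%, were in none of the 12. These matches describe letters in a 300-base window and nothing about binding. GC content was 57.7% in the Kcnj3 window, 62% in the Kcnj6 window, 76% in the Kcnj4 window and 66.7% in the Kcnj2 window.

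The plot of levels by library shows all 9 genes in all 9 libraries.

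**Figure D1:**
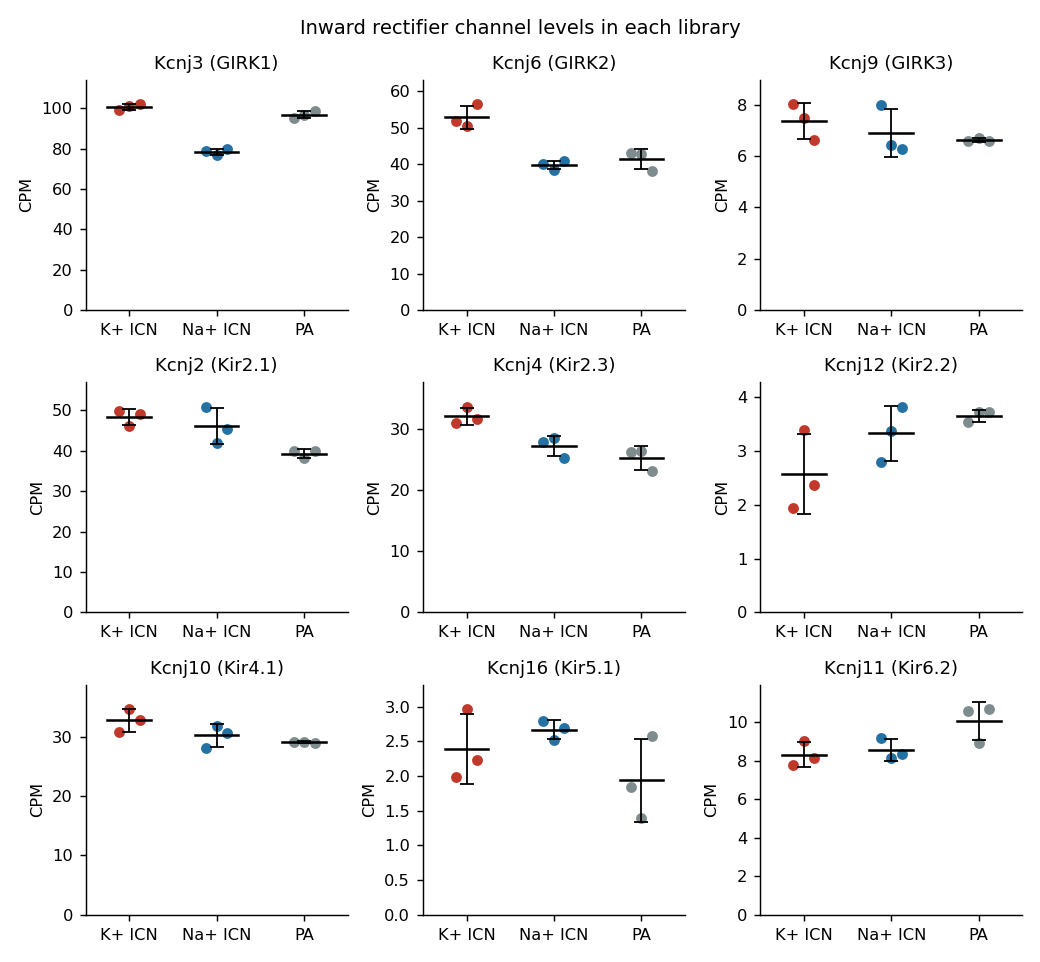
Level of each gene (y axis, CPM from 0) in K+ ICN, Na+ ICN and PA libraries; points are libraries, bars the mean and the SD (n = 3). Kcnj3 is lowest in the 3 Na+ ICN libraries (76.8 to 79.8 CPM), and Kcnj6 is highest in the 3 K+ ICN libraries (50.4 to 56.4 CPM).

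To order the genes by level, CPM was divided by the length of the longest GENCODE transcript in kilobases. Kcnj3 was highest in every group, at 19.3 ± 0.285 CPM per kb with K+ ICN, 15.0 ± 0.294 with Na+ ICN and 18.6 ± 0.31 with PA (SD, n = 3). Kcnj4 and Kcnj6 came next and overlapped each other with K+ ICN (14.4 to 15.7 and 13.9 to 15.6 CPM per kb) and with PA (10.7 to 12.3 and 10.5 to 11.9), but not with Na+ ICN (11.8 to 13.3 and 10.6 to 11.2). Below them came Kcnj2 (7.21 CPM per kb in PA), Kcnj10 (5.37), Kcnj11 (3.2), Kcnj9 (1.72), Kcnj12 (1.48) and Kcnj16 (0.524). Apart from Kcnj4 and Kcnj6, the library ranges of neighbours in this order overlapped only for Kcnj12 and Kcnj16 with K+ ICN, at 0.79 to 1.37 and 0.538 to 0.8 CPM per kb. The place of Kcnj4 depends on the length used: per kilobase of coding sequence it came below Kcnj10 in each group, at 19.0 CPM per kb in PA, against 25.5 for Kcnj10. Kcnj12 and Kcnj16 overlapped in K+ and Na+ ICN cultures on that scale, with the mean of Kcnj16 the higher. By the mean length of its transcripts, Kcnj11 stood at 7.62 CPM per kb with K+ ICN, 7.84 with Na+ ICN and 9.21 with PA, above Kcnj10 in each group and above Kcnj2 in PA.

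**Figure D2:**
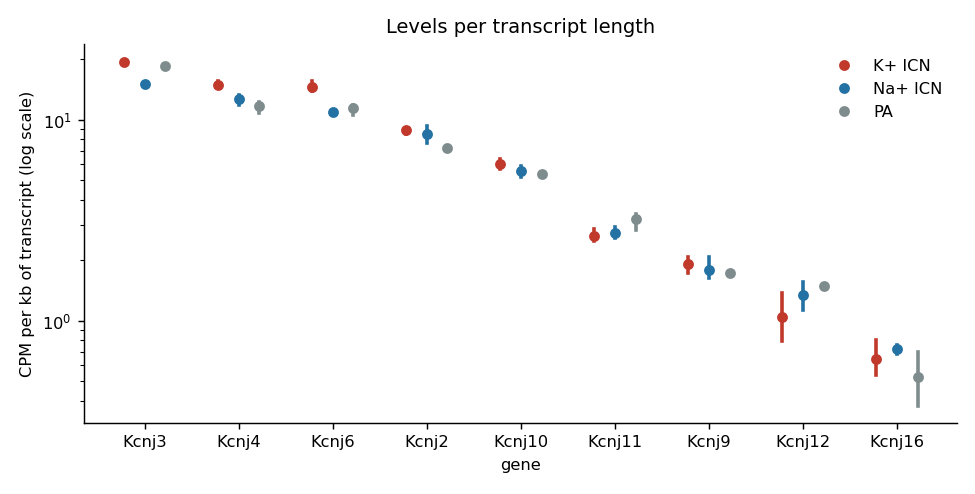
Level per kilobase of the longest transcript (y axis, CPM per kb, log scale) of the 9 genes in K+ ICN, Na+ ICN and PA cultures; points are means of 3 libraries and vertical lines run from the lowest to the highest library. Kcnj3 stands highest in each group and Kcnj16 lowest, at 0.524 CPM per kb in PA.

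The other 6 Kcnj genes in the table were near the detection floor. Kcnj14, which encodes another Kir2 subunit, was the only one tested, at 0.954 ± 0.388 CPM with K+ ICN, 0.798 ± 0.31 with Na+ ICN and 0.862 ± 0.426 with PA (SD, n = 3), and it passed no comparison. Kcnj5, the GIRK4 subunit of the heart, had 5 counts in the K+ ICN libraries together, 2 in the Na+ ICN libraries and 4 in the PA libraries. Kcnj8, the Kir6.1 pore of vascular smooth muscle, had 1, 1 and 3 counts in the same groups.

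The first question was which of these channels differ between Na+ ICN and PA cultures. With Na+ ICN, Kcnj3 fell and Kcnj2 rose, and the other 7 did not pass the threshold. That is 2 of 9 genes, 1 in each direction, where 10.9% of all tested genes passed (5.63% higher and 5.22% lower) by edgeR's quasi-likelihood test at an adjusted p of 0.05. The median log2 fold change was 0.054 over the 9 genes and 0.0036 over all tested genes. Libraries of the groups did not overlap for 2 of the 9, against 26.7% of all genes. At an unadjusted p under 0.05 there were the same 2 genes, against 23.5% of all genes.

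The second question was the same for K+ ICN. With K+ ICN, Kcnj6, Kcnj4 and Kcnj2 rose and none of the 9 fell, where 15.8% of all tested genes passed (8.15% higher and 7.68% lower). The median log2 fold change was 0.17 over the 9 genes and 0.0031 over all genes. Libraries did not overlap for 6 of the 9, against 32% of all genes. At an unadjusted p under 0.05 there were 5 of the 9, which adds Kcnj10 (higher) and Kcnj12 (lower), against 27.9% of all genes.

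The third question was whether the ions differ from each other. Kcnj3 and Kcnj6 were higher with K+ than with Na+ ICN, and none of the 9 was lower, where 6.58% of all tested genes passed (3.33% higher and 3.25% lower). The median log2 fold change was 0.099 over the 9 genes and -4.36e-04 over all genes. Libraries did not overlap for 3 of the 9, against 22% of all genes. At an unadjusted p under 0.05 there were 3 of the 9, which adds Kcnj4 (higher), against 17.9% of all genes. Both comparisons with PA use the same 3 PA libraries.

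**Figure D3:**
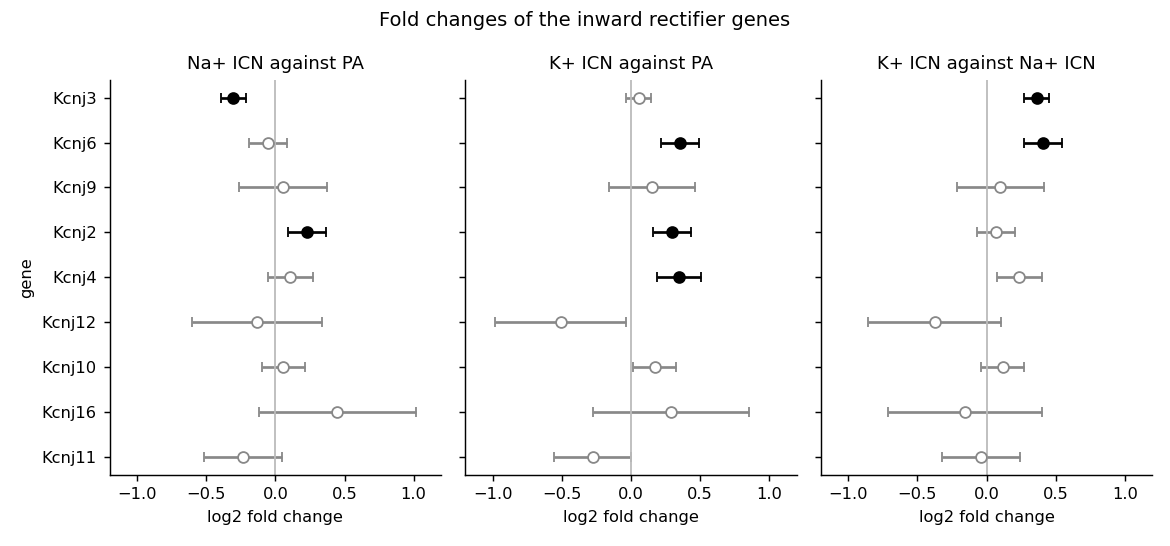
log2 fold change (x axis) of each gene in the 3 comparisons, with 95% confidence intervals from edgeR; filled points passed an adjusted p of 0.05. Kcnj3 lies left of 0 for Na+ ICN against PA (-0.31) and right of 0 for K+ against Na+ ICN (0.36), and Kcnj6 lies right of 0 in both comparisons of K+ ICN.

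Among the G protein-gated subunits, Kcnj3 encodes GIRK1, which needs a partner such as GIRK2 to reach the cell surface. Kcnj3 stood at 99.1, 101 and 102 CPM in the K+ ICN libraries, at 78.6, 76.8 and 79.8 CPM in the Na+ ICN libraries, and at 95.5, 96.6 and 98.7 CPM in the PA libraries. All Na+ ICN libraries lay below all others, and the K+ ICN libraries lay just above the PA libraries without overlap. Kcnj3 fell with Na+ ICN to 0.809 of the PA level (log2 fold change -0.31, SE 0.045, edgeR adjusted p = 2.93e-06). K+ ICN against PA gave a log2 fold change of 0.056 (SE 0.044, 95% interval -0.033 to 0.14), which did not pass (edgeR adjusted p = 0.452). The direct comparison put Kcnj3 1.28-fold higher with K+ than with Na+ ICN (log2 0.36, SE 0.045, edgeR adjusted p = 7.42e-08). These values rest on 1370 to 2258 counts per library.

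Kcnj6 encodes GIRK2, the subunit altered in the weaver mouse, which can form channels with GIRK1 or alone. Kcnj6 stood at 51.8, 50.4 and 56.4 CPM in the K+ ICN libraries, at 40.1, 38.5 and 40.8 CPM in the Na+ ICN libraries, and at 43.2, 42.9 and 38.2 CPM in the PA libraries. The K+ ICN libraries lay above all others, and the Na+ ICN and PA libraries overlapped. Kcnj6 rose 1.28-fold with K+ ICN against PA (log2 0.35, SE 0.067, edgeR adjusted p = 9.99e-05) and was 1.33-fold higher with K+ than with Na+ ICN (log2 0.41, SE 0.068, edgeR adjusted p = 2.14e-05). Na+ ICN against PA gave a log2 fold change of -0.055 (95% interval -0.19 to 0.084, edgeR adjusted p = 0.695).

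Kcnj9 encodes GIRK3, which joins other GIRK subunits and is sorted to endosomes by the nexin encoded by Snx27. It ranged from 6.63 to 8.01 CPM with K+ ICN, 6.26 to 7.98 with Na+ ICN and 6.59 to 6.72 with PA, so the groups overlapped. It passed no comparison. The log2 fold changes were 0.15 for K+ ICN against PA (95% interval -0.16 to 0.46), 0.054 for Na+ ICN against PA (-0.26 to 0.37) and 0.099 for K+ against Na+ ICN (-0.21 to 0.41). Snx27 itself averaged 187 ± 3.39 CPM with K+ ICN, 191 ± 12.2 with Na+ ICN and 200 ± 5.3 with PA (SD, n = 3) and passed no comparison.

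Summed over the 3 subunits, GIRK transcripts came to 158.9 to 165.1 CPM with K+ ICN, 121.7 to 126.8 with Na+ ICN and 143 to 146 with PA, and the 3 groups did not overlap. Per kilobase of transcript, Kcnj6 was 0.755 ± 0.039 of Kcnj3 with K+ ICN, 0.73 ± 0.0077 with Na+ ICN and 0.615 ± 0.051 with PA (SD, n = 3). Every ICN library, from 0.717 to 0.796 with K+ and from 0.721 to 0.735 with Na+, lay above the PA libraries, at 0.557 to 0.65. In K+ ICN cultures the higher ratio went with a higher Kcnj6, and in Na+ ICN cultures with a lower Kcnj3. The ratio was formed with these levels known and is given as a description, with no test. For either ion alone against PA, a two-sided exact permutation test of 3 libraries against 3 cannot go below p = 0.1.

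**Figure D4:**
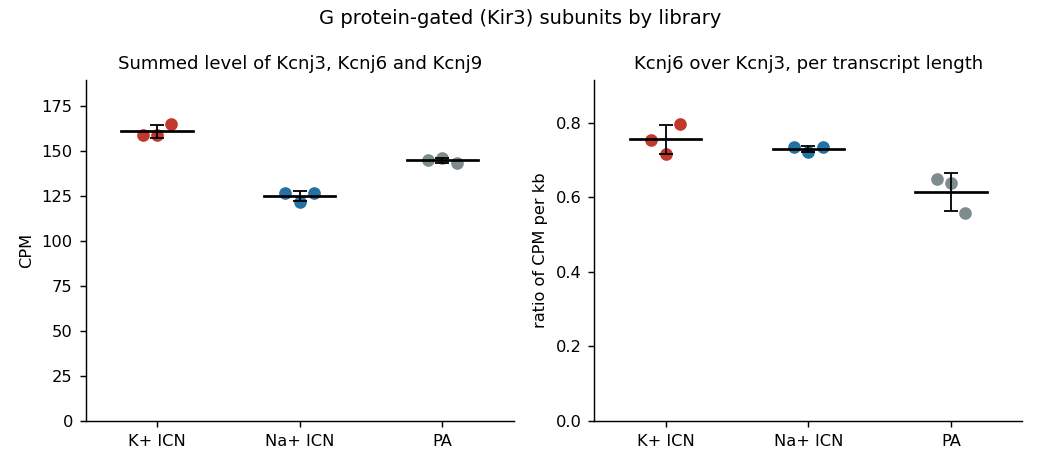
Left, summed level of Kcnj3, Kcnj6 and Kcnj9 (y axis, CPM) and right, the ratio of Kcnj6 to Kcnj3 per kilobase of transcript (y axis), in K+ ICN, Na+ ICN and PA libraries; points are libraries, bars the mean and SD (n = 3). The sum is lowest with Na+ ICN (121.7 to 126.8 CPM), while the ratio is lowest with PA (0.557 to 0.65).

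Among the constitutive channels, Kcnj2 encodes Kir2.1, a strong rectifier that sets the resting potential and underlies Andersen-Tawil syndrome in humans when mutated. Kcnj2 stood at 49.7, 46.0 and 49.0 CPM in the K+ ICN libraries, at 50.8, 41.9 and 45.4 CPM in the Na+ ICN libraries, and at 39.8, 38.1 and 39.9 CPM in the PA libraries. All ICN libraries of either ion lay above all PA libraries, and the K+ and Na+ libraries overlapped. Kcnj2 rose 1.23-fold with K+ ICN (log2 0.30, SE 0.069, edgeR adjusted p = 0.0015) and 1.17-fold with Na+ ICN (log2 0.23, SE 0.07, edgeR adjusted p = 0.0253). The call for Na+ ICN did not hold without Na+ ICN replicate 1 (log2 0.15, edgeR adjusted p = 0.219) or without PA replicate 1, 2 or 3 (edgeR adjusted p = 0.0575, 0.0961 and 0.0528). K+ against Na+ ICN gave a log2 fold change of 0.067 (95% interval -0.071 to 0.21, edgeR adjusted p = 0.704).

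Kcnj4 encodes Kir2.3, a forebrain Kir2 subunit found at synapses through its binding to PDZ scaffolds. Kcnj4 stood at 31.1, 33.7 and 31.7 CPM in the K+ ICN libraries, at 27.9, 28.6 and 25.4 CPM in the Na+ ICN libraries, and at 26.3, 26.5 and 23.1 CPM in the PA libraries. The K+ ICN libraries lay above all others, and the Na+ ICN and PA libraries overlapped. Kcnj4 rose 1.27-fold with K+ ICN (log2 0.35, SE 0.08, edgeR adjusted p = 0.00132). Na+ ICN against PA gave log2 0.11 (95% interval -0.055 to 0.27, edgeR adjusted p = 0.456), and K+ against Na+ ICN gave log2 0.24 (95% interval 0.077 to 0.40, edgeR adjusted p = 0.0637), so a difference between the ions did not pass. With the replicate number as a block in the fit, that last comparison gave edgeR adjusted p = 0.047.

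Kcnj12 encodes Kir2.2 and rested on 43 to 85 counts per library. It stood at 1.95, 3.38 and 2.37 CPM in the K+ ICN libraries, at 2.79, 3.36 and 3.81 CPM in the Na+ ICN libraries, and at 3.52, 3.71 and 3.71 CPM in the PA libraries. The K+ ICN libraries lay below the PA libraries without overlap but spread widely, with an SD of 28.8% of the mean. The log2 fold changes were -0.51 for K+ ICN against PA (SE 0.24, edgeR adjusted p = 0.145), -0.13 for Na+ ICN against PA (edgeR adjusted p = 0.795) and -0.37 for K+ against Na+ ICN (edgeR adjusted p = 0.451). The sign of Kcnj12 against PA was opposite to that of Kcnj2 and Kcnj4, but it did not pass the threshold. Summed, the Kir2 genes came to 82.7 to 83.1 CPM with K+ ICN, 73.8 to 81.5 with Na+ ICN and 66.7 to 69.6 with PA.

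Of the glial subunits, Kcnj10 encodes Kir4.1, the main potassium channel of astrocytes. Kcnj10 stood at 30.8, 34.6 and 32.8 CPM in the K+ ICN libraries, at 28.1, 31.8 and 30.7 CPM in the Na+ ICN libraries, and at 29.2, 29.1 and 28.9 CPM in the PA libraries. The K+ ICN libraries lay above the PA libraries, and the Na+ ICN libraries lay on both sides of them. Kcnj10 passed no comparison, with a log2 fold change of 0.17 for K+ ICN against PA (SE 0.076, 95% interval 0.018 to 0.33, edgeR adjusted p = 0.127) and 0.056 for Na+ ICN against PA (95% interval -0.10 to 0.21, edgeR adjusted p = 0.731). Kcnj16 encodes Kir5.1, which joins Kir4.1 in mixed channels, and ranged from 1.99 to 2.96 CPM with K+ ICN, 2.52 to 2.79 with Na+ ICN and 1.4 to 2.58 with PA. At 26 to 63 counts per library it passed no comparison, and its 95% interval for Na+ ICN against PA ran from -0.12 to 1.01 on the log2 scale.

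Of 12 tested astrocyte markers, 9 rose and none fell with K+ ICN against PA (median log2 0.22; 8 rose with DESeq2 size factors and 10 with upper-quartile scaling), and 8 rose and none fell with Na+ ICN against PA (median log2 0.25), by edgeR's adjusted p. Between the ions, 1 was higher and 3 were lower with K+ than with Na+ ICN (median log2 0.068). Of all tested genes, 8.15% were higher with K+ ICN than with PA and 5.63% with Na+ ICN than with PA, and 6.58% passed in either direction between the ions. The water channel Aqp4, which lies beside Kir4.1 in astrocyte endfeet, stood at 19.1 ± 0.939 CPM with K+ ICN, 16.0 ± 1.24 with Na+ ICN and 13.6 ± 2.05 with PA (SD, n = 3). It rose 1.4-fold with K+ ICN (edgeR adjusted p = 8.50e-04), and Na+ ICN against PA gave edgeR adjusted p = 0.18. The part of astrocyte content in the values of Kcnj10 and Kcnj16 was not tested.

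Kcnj11 encodes Kir6.2, the pore of the ATP-sensitive channel of neurons and pancreatic beta cells. Kcnj11 stood at 7.79, 9.02 and 8.13 CPM in the K+ ICN libraries, at 9.19, 8.12 and 8.36 CPM in the Na+ ICN libraries, and at 10.6, 8.92 and 10.7 CPM in the PA libraries. PA replicate 2 lay within the range of the ICN libraries and the other 2 PA libraries above it. The log2 fold changes were -0.28 for K+ ICN against PA (95% interval -0.55 to 0.0012, edgeR adjusted p = 0.181), -0.23 for Na+ ICN against PA (-0.51 to 0.045, edgeR adjusted p = 0.318) and -0.041 for K+ against Na+ ICN (-0.32 to 0.24). Its partner Abcc8 averaged 6.14 ± 0.839 CPM with K+ ICN, 7.41 ± 1.03 with Na+ ICN and 7.32 ± 0.523 with PA (SD, n = 3) and passed no comparison. Abcc9, the SUR2 subunit, had 0 to 2 counts per K+ ICN library, 0 to 5 per Na+ ICN library and 2 to 7 per PA library and was not tested.

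Genes that act on these channels or serve glial clearance of potassium, water and glutamate were counted in 6 lists. The lists were chosen for role, with earlier results of these data known. These counts stand against 15.8% of all tested genes for K+ ICN against PA, 10.9% for Na+ ICN against PA and 6.58% for K+ against Na+ ICN, and with 10 to 22 genes a list they are given as descriptions. Of 22 tested receptors that can open GIRK channels, 4 rose and 4 fell with K+ ICN against PA, 3 rose and 2 fell with Na+ ICN against PA, and 3 were higher and 1 lower with K+ than with Na+ ICN (medians of log2 0.069, 0.035 and 0.054). That is 8, 5 and 4 of 22 genes. The group II glutamate receptor Grm2 had the smallest p with K+ ICN, rising 1.71-fold to 77.9 ± 3.4 CPM, against 45.5 ± 0.518 with PA (SD, n = 3, edgeR adjusted p = 4.28e-14). Grm2 also rose 1.24-fold with Na+ ICN against PA and was 1.38-fold higher with K+ than with Na+ ICN (edgeR adjusted p = 3.43e-04 and 8.89e-08). Gabbr2, the GABA-B subunit that couples to G proteins, fell with each ion against PA, to 0.829 with K+ ICN and 0.834 with Na+ ICN. Its partner Gabbr1 was 1.1-fold higher with K+ than with Na+ ICN (edgeR adjusted p = 6.41e-04). Grm3 fell to 0.742 of PA with K+ ICN, the adrenoceptor Adra2a to 0.767 of PA with Na+ ICN, and the neuropeptide Y receptor Npy1r was 1.17-fold higher with K+ than with Na+ ICN. The Adra2a and Npy1r calls did not hold without some single libraries (edgeR adjusted p up to 0.0969 without Na+ ICN replicate 3 and 0.123 without Na+ ICN replicate 1). The Grm2 calls, the Gabbr2 calls against PA, Grm3 against PA and Gabbr1 between the ions held in every alternative fit. Each of the other receptor calls in these counts was lost without some single libraries.

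Of 18 tested Gi/o protein subunits, 2 rose and 3 fell with K+ ICN against PA, 1 rose and 3 fell with Na+ ICN against PA (1 and 2 with upper-quartile scaling), and 2 were higher and none lower with K+ than with Na+ ICN (medians of log2 -0.024, 0.0013 and 0.0015). Over all tested genes, 15.8%, 10.9% and 6.58% passed in these 3 comparisons. Among the 3 falls with K+ ICN, 1 gamma subunit rested on 1 to 5 counts per K+ ICN library. That call was lost without the low-count filter (edgeR adjusted p = 0.051) and without some single libraries (up to 0.127). The fall of Gnai1 with K+ ICN was lost without K+ ICN replicate 1 (0.0734), and each fall with Na+ ICN without some single library. Gng4, a gamma subunit, stood at 219 ± 5.35 CPM with K+ ICN, 162 ± 4.52 with Na+ ICN and 163 ± 2.29 with PA (SD, n = 3). It was 1.34-fold higher with K+ ICN than with PA and 1.35-fold higher than with Na+ ICN (edgeR adjusted p = 1.21e-12 and 9.89e-13). Gnai2, an alpha subunit, rose 1.14-fold with K+ and 1.17-fold with Na+ ICN against PA. Another gamma subunit, Gng7, fell to 0.813 of PA with K+ ICN and to 0.89 with Na+ ICN. The second of these calls did not hold without Na+ ICN replicate 2 (edgeR adjusted p = 0.139) or PA replicate 3 (0.0814). Gnai1 fell to 0.902 of PA with Na+ ICN, a call lost without Na+ ICN replicate 2 (0.0802), and the beta subunit Gnb4 was 1.14-fold higher with K+ than with Na+ ICN, lost without K+ ICN replicate 2 (0.184) or Na+ ICN replicate 2 (0.0879).

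RGS proteins speed the shut-off of G proteins and so the closing of GIRK channels. Of 16 tested RGS genes and partners, 5 rose and 3 fell with K+ ICN against PA (5 and 1 with upper-quartile scaling), none rose and 2 fell with Na+ ICN against PA (1 and 2 with that scaling), and 4 were higher and 2 lower with K+ than with Na+ ICN (medians of log2 0.037, -0.067 and 0.057), where 15.8%, 10.9% and 6.58% of all tested genes passed. Rgs4 stood at 284 ± 1.39 CPM with K+ ICN, 165 ± 6.34 with Na+ ICN and 209 ± 17.2 with PA (SD, n = 3). It rose with K+ ICN against PA by log2 0.44 (SE 0.042, edgeR adjusted p = 8.61e-09). With Na+ ICN against PA it fell, with log2 -0.34 (SE 0.044, edgeR adjusted p = 2.94e-06). Rgs2 rose 1.43-fold and Rgs16 1.47-fold with K+ ICN against PA. Between the ions, Rgs4 was 1.72-fold higher with K+ than with Na+ ICN (edgeR adjusted p = 3.28e-13), and Rgs2 stood at 160.4 ± 2.68 CPM with K+ ICN, against 105.5 ± 7.08 with Na+ ICN (SD, n = 3, 1.52-fold, edgeR adjusted p = 6.11e-15). Rgs7, the GIRK regulator of hippocampal neurons, was 1.23-fold higher with K+ than with Na+ ICN, and its membrane anchor Rgs7bp fell to 0.834 of PA with Na+ ICN. Between the ions, only the Rgs2, Rgs4 and Rgs7 calls held in every alternative fit. Some of the falls with K+ ICN against PA were also lost without single libraries.

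All Kir channels need the membrane lipid PIP2 to open. Of 10 tested enzymes that make or degrade it, 2 fell with K+ ICN and the same 2, the phospholipase Plcb1 and the kinase Pip5k1c, with Na+ ICN against PA (1 with upper-quartile scaling, which leaves Plcb1). With 2 of 10 passing in each, the count for K+ ICN was near the 15.8% of all tested genes. For Na+ ICN the share of all tested genes was 10.9%, and with only 10 genes neither count is read as a result about these enzymes. Plcb1 was at 0.913 of PA with K+ ICN and 0.857 with Na+ ICN, and Pip5k1c at 0.926 and 0.935. Between the ions 2 of 10 passed, where 6.58% of all tested genes did. The phosphoinositide kinase Pi4ka (1.09-fold) and the phosphatase Synj1 (1.08-fold) were higher with K+ than with Na+ ICN. Medians of log2 were 0.009, -0.05 and -0.019 for K+ ICN against PA, Na+ ICN against PA, and K+ against Na+ ICN. Of these calls, Plcb1 with Na+ ICN held in every alternative run, and each of the others was lost without at least 1 library (edgeR adjusted p up to 0.165, from Plcb1 without K+ ICN replicate 1).

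Of 14 scaffold and sorting partners, 1 rose and 3 fell with K+ ICN against PA (2 and 3 with upper-quartile scaling), 1 rose and 1 fell with Na+ ICN against PA (1 and 2 with DESeq2 size factors), and 2 were higher and 3 lower with K+ than with Na+ ICN (2 and 4 with upper-quartile scaling; medians of log2 -0.071, -0.026 and -0.029). With 4, 2 and 5 of 14 genes passing, against 15.8%, 10.9% and 6.58% of all tested genes, the count for Na+ ICN was near that of all genes. Flna, the actin linker filamin A that binds Kir2.1, rose 1.38-fold with K+ and 1.29-fold with Na+ ICN against PA (edgeR adjusted p = 1.11e-14 and 2.31e-11). Ncam1, a neural adhesion molecule, fell to 0.879 of PA with K+ ICN, and the scaffold Dlg2 to 0.912. Ncam1 was also lower with K+ than with Na+ ICN, at 0.906 of the Na+ level. Akap5, a kinase anchor, fell to 0.781 of PA with Na+ ICN. It was 1.23-fold higher with K+ than with Na+ ICN, which was lost without K+ ICN replicate 2 (edgeR adjusted p = 0.0772), and Apba1 was 1.09-fold higher, lost without K+ ICN replicate 1 (0.0675) or 3 (0.0522). Of the 5 calls between the ions, Ncam1 alone held in every alternative fit, and the others were each lost without some single library.

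Of 14 tested genes for glial clearance of potassium, water and glutamate, 7 rose and 1 fell with K+ ICN against PA (7 and 0 with upper-quartile scaling), 6 rose and 1 fell with Na+ ICN against PA, and 1 was higher and 1 lower with K+ than with Na+ ICN (medians of log2 0.17, 0.21 and 0.037), beside the same shares of all tested genes, 15.8%, 10.9% and 6.58%. Of these 14 genes, 4 (Aqp4, Slc1a2, Slc1a3 and Gja1) are also on the astrocyte list above. The dystrobrevin Dtna rose 1.36-fold, the gap junction protein Gja1 1.27-fold and the astrocytic membrane protein Mlc1 1.26-fold with K+ ICN against PA. With Na+ ICN against PA, the pump subunit Atp1b2 rose 1.18-fold, Mlc1 1.22-fold and the glutamate transporter Slc1a3 1.14-fold. Dtna was also 1.29-fold higher with K+ than with Na+ ICN. Some of the calls of each ion against PA were lost without single libraries.

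Across the 9 libraries, the genes whose log2 CPM followed each of the 4 called channels most closely were named, as a description of libraries that share treatment and depth. Kcnj3 was most like Phactr1 and Pcdh7 (Pearson r = 0.985 and 0.984, 9 libraries) and Plppr4 (r = 0.984). Kcnj6 was most like Rasa3 (r = 0.968), the GABA-A receptor subunit Gabrg3 (r = 0.958) and the ERK phosphatase Dusp6 (r = 0.958). Kcnj4 was most like Unc13a, which primes synaptic vesicles (r = 0.963), Arid5a (r = 0.953) and Ppp1r12b (r = 0.938). Kcnj2 was most like Tecr (r = 0.966), the chaperone Hsp90ab1 (r = 0.961) and Epop (r = 0.954).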

How the data were processed

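Polyadenylated RNA of 9 cultures was measured. The authors deposited raw counts per gene symbol; the tools were RSEM, STAR and Trim Galore and the build GRCm38, without versions, per the submitters' processing notes. No source used here states the annotation or whether strand was used. Library totals were 17924988 to 22906950, and replicates differed by more than counting noise (chi-square per degree of freedom 3.24 to 4.19).

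Genes were kept by filterByExpr with a count minimum of 10, leaving 15183 genes with 99.93% of the counts. One edgeR 4.0.16 quasi-likelihood model (R 4.3.3, robust, TMM) was fitted to all 9 libraries. Adjusted p-values are Benjamini-Hochberg over all tested genes, with a threshold of 0.05. The SE is the log2 fold change divided by the root of F, and 95% intervals use the model's degrees of freedom.

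Alternatives were DESeq2 1.42.0, limma 3.58.1 voom, edgeR with upper-quartile scaling or with the DESeq2 size factors, no low-count filter or a minimum of 1 CPM in 3 libraries, only the 6 libraries under comparison, a replicate term, and leaving out each library. The members and lists were chosen with earlier results of these data known. All members are named, with up to 3 called genes per partner list and comparison by p, and, for each called member, the 3 genes of at least 5 CPM with the highest r of log2(CPM + 0.5), predicted genes left out. A partner gene that this rule names is not reported here. Lengths and exon overlaps are from GENCODE M21; positions and promoters from RefSeq.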

Additional observations from a re-analysis of the deposited data

Results flagged for a closer look

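For 2 of the 9 channel genes the effects of the ions differed by a direct test. Of all tested genes, 6.58% passed this test (3.33% higher and 3.25% lower with K+ than with Na+ ICN). Libraries of the K+ and Na+ ICN groups did not overlap for 22% of all tested genes. Kcnj3 was higher with K+ than with Na+ ICN by a log2 fold change of 0.36 (edgeR adjusted p = 7.42e-08), with all 3 K+ ICN libraries above all 3 Na+ ICN libraries. Kcnj6 was higher with K+ than with Na+ ICN by a log2 fold change of 0.41 (edgeR adjusted p = 2.14e-05), again with all 3 K+ ICN libraries above all 3 Na+ ICN libraries.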

How the results depend on the processing

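Of the refits of single channel genes, 449 kept direction and side of the threshold, 4 lost a call, 1 gained one and 3 changed sign. With each library left out in turn, the genes passing ranged from 1079 to 1611 for Na+ ICN against PA (1089 without Na+ ICN replicate 2, 1079 without PA replicate 3), and the channel genes passing from 1 to 2. The 4 losses were Kcnj2 for Na+ ICN against PA, without Na+ ICN replicate 1 or any PA library, with log2 fold changes from 0.15 to 0.24; each of these fits has fewer samples. Uncalled values changed sign for Kcnj9 with Na+ ICN against PA (-0.064 without Na+ ICN replicate 1, up to 0.12 without Na+ ICN replicate 3) and Kcnj11 with K+ against Na+ ICN (0.0042 without K+ ICN replicate 1, 0.012 without Na+ ICN replicate 1, down to -0.10 without K+ ICN replicate 2). Upper-quartile scaling moved the split over all genes from 855 higher and 793 lower to 1042 and 552 for Na+ ICN against PA, and from 1237 and 1166 to 1440 and 902 for K+ ICN against PA; the cause was not tested. It changed no call among the 9 genes. With the replicate block, 1825, 2612 and 1165 genes passed for Na+ ICN against PA, K+ ICN against PA and K+ against Na+ ICN, against 1648, 2403 and 999 without it, and Kcnj4 passed between the ions (log2 0.24, edgeR adjusted p = 0.047). Deviations of same-numbered libraries correlated at -0.016 to 0.048. Each K+ ICN library correlated best with its own number among the Na+ ICN libraries, which did not hold between Na+ ICN and PA. No K+ ICN library correlated best with its own number among the PA libraries. Correlations this small cannot decide whether the numbers pair the samples. The block changed no other call among the 9 genes.

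Levels per kilobase in PA, as the values depend on the length divided by: per coding length they were 30.6 (Kcnj2), 64.5 (Kcnj3), 19.0 (Kcnj4), 32.5 (Kcnj6), 5.63 (Kcnj9), 25.5 (Kcnj10), 8.59 (Kcnj11), 2.3 (Kcnj12) and 1.54 (Kcnj16) CPM per kb. Per mean transcript length they were 26.5 (Kcnj3), 18.02 (Kcnj6), 2.65 (Kcnj9), 9.21 (Kcnj11) and 0.744 (Kcnj16). Kcnj12, at 1.52, stayed within 1 SD of the value given. Kcnj2, Kcnj4 and Kcnj10 each have 1 transcript in GENCODE M21, so their values could not change. Depth limits Kcnj12 and Kcnj16, with at most 85 counts in any library.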
